A study of Homo sapiens with 12 samples.

Results

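Laminins are the trimeric glycoproteins (one α, one β and one γ chain) on which basement membranes are built, and integrins are the αβ receptor pairs by which cells hold on to them. Every gene row whose name is that of a laminin chain or of an integrin α or β subunit was taken, which gave 38 genes among the 57133 in the count files: 12 laminin chains, 18 α subunits and 8 β subunits. Of these, 28 had enough counts to be tested (10 laminin chains, 11 α subunits and 7 β subunits). The cells were MCF10-A, an established, non-tumorigenic human mammary epithelial line, at passages 12-15 per the labels, and all of them carried a doxycycline-inducible transgene and were given 50 ng/ml doxycycline, with collection at day 5. The 4 groups of 3 libraries are p16 with Torin2 (mVenus-p16 with the mTOR kinase inhibitor Torin2 at 100 nM), p21 (mVenus-p21), p16 (mVenus-p16 with DMSO) and mVenus (the fluorescent protein alone), the last being the control for both inhibitors of the cell cycle. Doxycycline was added 20 hours after seeding, and Torin2 24 hours after doxycycline. Torin2 was given to p16 cells alone, so its effect in cycling or p21 cells was not measured. Whether each line is a clone or a pool is not given in the sources used here, and the series description calls the replicates biological.

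In epithelia, the α3 and β3 chains belong to the laminin of hemidesmosomes, the anchors that tie keratin filaments to the basement membrane. Integrin α6β4 is the hemidesmosome receptor for it, and α3β1 binds the same laminin in focal contacts. Other pairs bind fibronectin and related ligands (α5β1 and the αv integrins) or collagen (α1β1, α2β1, α10β1 and α11β1), while those with β2 or β7 belong mainly to leukocytes. Mammary basal cells are known for abundant laminin and its receptors, and p16 and p21 are known for stopping division.

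Between 13168749 and 18321114 counts were assigned in each library, which left 14504 genes to test. MKI67, a marker of cycling cells, averaged 51.5 ± 0.647 CPM in p16 with Torin2, 3.35 ± 0.424 in p21, 10.1 ± 0.426 in p16 and 331 ± 15.6 in mVenus (SD, n = 3 each), where CPM is the count scaled to library size and composition. CDKN2A, which encodes p16, had 0 counts in all 12 libraries, so it checks no label, and CDKN1A, which encodes p21, rose 1.25-fold in p21 over mVenus (0.32 ± 0.04 on the log2 scale, adjusted p = 2.08e-06). The 6 general epithelial markers were all detected, with summed levels of 5791 to 6130 CPM in p16 with Torin2, 7575 to 7804 in p21, 14194 to 14919 in p16 and 5715 to 5979 in mVenus, and the part of this difference in the results was not tested. In bulk RNA, more or fewer cells of a type and more or less RNA per cell cannot be told apart. Fold changes below are log2 values ± SE, adjusted p-values come from the quasi-likelihood test of edgeR with Benjamini-Hochberg adjustment over all 14504 genes, and a gene is said to have risen or fallen where that value was under 0.05. The comparisons share libraries, so their calls are not independent of each other.

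Per kilobase of exon, a scale that takes account of gene length, LAMB3 had the highest mean of the 12 laminin genes in all 4 groups. The length covers the exons of all annotated transcripts of a gene, and which of them were expressed was not tested. Order and ratios between genes are therefore approximate. For LAMA3 the length is 14678 bases over 15 annotated transcripts. LAMA3 stood above LAMC1, LAMB2 and LAMB1 except in p21, where it averaged 64.1 ± 2.23 CPM per kilobase against LAMC1 at 75.1 ± 1.06, LAMB2 at 72.3 ± 1.03 and LAMB1 at 67.6 ± 0.511 (SD, n = 3 each). LAMA3 (chr18:23689443-23956222, GRCh38), which encodes the α3 chain, stood at 1677, 1655 and 1499 CPM in p16 with Torin2, 915, 930.2 and 978 in p21, 969.5, 948 and 948 in p16 and 1705, 1658 and 1652 in mVenus. LAMB3 (chr1:209614870-209652466), which encodes the β3 chain, stood at 1714, 1812 and 1731 CPM in p16 with Torin2, 1109.6, 1100.3 and 1085 in p21, 738, 699 and 649 in p16 and 1978, 2017 and 1866 in mVenus. For both chains every p16 and p21 library lay below every mVenus library, and every p16 library lay below every library of p16 with Torin2. The p16 and p21 libraries overlapped in LAMA3 and not in LAMB3, which was higher in p21. With Torin2, LAMA3 overlapped the mVenus level and LAMB3 lay just below it.

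Promoter stretches of LAMA3 and LAMB3 are shown because both genes fell with p16 and p21. Of the 28 tested genes, 20 were matched in the RefSeq promoter table (GRCh38.p14), and 3 motifs were searched on both strands of the 250 bases before each start: AP-1 (TGANTCA), TEAD (GGAATG) and the GC box (GGGCGG). AP-1 letters occurred in 1 of the 20, LAMA3, against 6.57% of all 35116 promoters in the table. TEAD letters occurred in 4 (ITGA5, ITGA10, ITGB1 and LAMA2) against 11.9% of promoters, and GC boxes in 11 against 42.6%. Below, capitals mark motif matches, and none of the AP-1 or TEAD matches overlapped another match. The first 2 stretches hold the AP-1 matches of LAMA3, which begin 125 and 69 bases before its start (plus strand, chr18:23872885-23872911 and chr18:23872941-23872967). Both lie outside the longest exon-free part of the LAMA3 window (chr18:23872770-23872839). That part is not printed and holds 1 GC box, which begins 197 bases before the LAMA3 start. The next is the exon-free part of the LAMB3 promoter (minus strand, chr1:209652467-209652675), which holds 1 GC box. The last is that of LAMB1 (minus strand, chr7:108003256-108003411), whose level moved the other way from LAMB3 in p21 and whose stretch holds 2 GC boxes. The start of LAMA3 in the table lies within the annotated gene.
LAMA3 upstream match: tggcacaggcTGACTCAtgtgtgaagt
LAMA3 downstream match: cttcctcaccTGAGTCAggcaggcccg
LAMB3: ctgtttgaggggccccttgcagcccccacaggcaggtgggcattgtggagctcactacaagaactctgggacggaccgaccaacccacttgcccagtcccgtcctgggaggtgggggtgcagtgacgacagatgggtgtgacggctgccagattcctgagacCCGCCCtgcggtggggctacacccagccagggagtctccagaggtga
LAMB1: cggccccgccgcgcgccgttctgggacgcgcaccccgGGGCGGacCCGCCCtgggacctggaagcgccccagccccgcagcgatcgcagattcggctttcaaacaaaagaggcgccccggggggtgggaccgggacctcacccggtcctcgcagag
A match of letters is a description of the sequence, not of a bound site.

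The chains of the broadly distributed laminins behaved differently from each other. LAMA5 (chr20:62307955-62367312), the α chain of most other epithelial basement membranes, stood at 724, 786 and 771 CPM in p16 with Torin2, 782, 773 and 766 in p21, 562, 556 and 487 in p16 and 758, 824 and 737 in mVenus. The p16 libraries were lowest and did not overlap the other groups, which overlapped each other. LAMB1 (chr7:107923799-108003255), a β chain that pairs with γ1, stood at 409.7, 395 and 382 CPM in p16 with Torin2, 548, 547 and 555 in p21, 358, 355 and 347 in p16 and 317, 327 and 322 in mVenus. LAMB2, the β chain known from kidney and neuromuscular basement membranes, stood at 247, 270.2 and 281 CPM in p16 with Torin2, 504, 495 and 491 in p21, 421, 386 and 361 in p16 and 374, 400.0 and 384 in mVenus. In both β chains every p21 library lay above all others, while p16 with Torin2 was lowest for LAMB2 and second for LAMB1. LAMC1 (chr1:183023460-183145592), the γ chain of most laminins, stood at 444, 464 and 429.8 CPM in p16 with Torin2, 626, 626 and 641 in p21, 386, 394 and 366 in p16 and 651, 661 and 631 in mVenus. Here p21 and mVenus overlapped, and p16 lay below all other groups.

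Of the remaining α chains, LAMA1, the chain of early embryonic and some epithelial basement membranes, stood at 14.1, 16.3 and 16 CPM in p16 with Torin2, 19.5, 23.3 and 20.3 in p21, 9.97, 8.88 and 8.46 in p16 and 26.4, 23.1 and 22.6 in mVenus. It was lowest in p16, with no overlap between p16 and any other group, while p21 overlapped mVenus. LAMA2, the muscle and nerve chain, ranged from 0.700 to 2.17 CPM over all 12 libraries, and LAMA4, known from vessel walls, from 0.592 to 1.72 CPM. LAMB4 and LAMC3 had at most 5 and 1 counts in a library and were not tested. Of the exonic bases of LAMA1, 11.1% overlap other annotated genes, and what this overlap did to its counts was not tested.

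Receptors for laminin made up much of the integrin signal. ITGA3 (chr17:50055968-50090481), which encodes the α3 subunit, stood at 2162, 2327 and 2238 CPM in p16 with Torin2, 2501, 2464 and 2406 in p21, 3086, 2934 and 2664 in p16 and 1425, 1445 and 1375 in mVenus. ITGB4 (chr17:75721328-75757818), which encodes the β4 subunit and pairs with α6 alone, stood at 4731, 4846 and 4756 CPM in p16 with Torin2, 1906, 1890.3 and 1856 in p21, 2775, 2558 and 2452 in p16 and 1123, 1197 and 1111 in mVenus. The 4 groups did not overlap in ITGB4, which was highest in p16 with Torin2 and lowest in mVenus, and in ITGA3 every mVenus library lay below all the others. ITGA6 (chr2:172427354-172506282), which encodes the only partner of β4, stood at 459.5, 434 and 419 CPM in p16 with Torin2, 404, 409 and 410.1 in p21, 386, 392.4 and 402 in p16 and 391.5, 391 and 389 in mVenus. Its 12 libraries spanned only 386 to 459.5 CPM. ITGB1 (chr10:32900319-33005792), which encodes the β1 subunit shared by most α subunits, stood at 1034, 989 and 907 CPM in p16 with Torin2, 1759.9, 1726 and 1784 in p21, 1192, 1197 and 1259.9 in p16 and 1543, 1486 and 1489.5 in mVenus. The 4 groups did not overlap, with p21 highest and p16 with Torin2 lowest. ITGA7, which encodes a laminin receptor subunit best known from muscle, was low, at 0.586, 0.710 and 0.851 CPM in p16 with Torin2, 3.0, 2.35 and 2.80 in p21, 1.06, 1.12 and 1.28 in p16 and 2.88, 3.28 and 2.88 in mVenus. Every library of both p16 groups lay below every p21 and mVenus library, and p21 overlapped mVenus.

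Receptors for fibronectin and related ligands were mostly lower than in mVenus. ITGA5 (chr12:54395261-54419460), which encodes the fibronectin receptor subunit α5, stood at 301, 324 and 313 CPM in p16 with Torin2, 379, 389.5 and 398 in p21, 254, 236 and 225 in p16 and 592, 595 and 572 in mVenus. ITGAV, which encodes the αv subunit shared by β1, β3, β5, β6 and β8, stood at 212, 184 and 176 CPM in p16 with Torin2, 235, 236 and 233 in p21, 236, 265 and 282 in p16 and 388, 380.0 and 394 in mVenus. The mVenus libraries were highest in both, and p16 was lowest in ITGA5 while p16 with Torin2 was lowest in ITGAV. Among the partners of αv, ITGB5, whose product binds vitronectin, stood at 147, 146 and 140.3 CPM in p16 with Torin2, 189, 186 and 196 in p21, 139, 131 and 117 in p16 and 222, 226 and 214 in mVenus. ITGB6 (chr2:160099666-160200313), an epithelial subunit that with αv activates latent TGFβ, stood at 45.7, 39.8 and 36.9 CPM in p16 with Torin2, 58.0, 55.6 and 60.5 in p21, 64.2, 67.0 and 72.0 in p16 and 148, 146 and 154 in mVenus. ITGB8 (chr7:20330702-20415754), the other αv partner that activates latent TGFβ, stood at 158, 146 and 143 CPM in p16 with Torin2, 116, 109 and 110.5 in p21, 178, 199 and 238 in p16 and 67.5, 71.3 and 76.8 in mVenus. ITGB6 and ITGB8 thus differed from mVenus in opposite directions: mVenus was above every other library in ITGB6 and below every other library in ITGB8. ITGB3 was close to absent, at 0.127 to 1.41 CPM, and 51.6% of its exonic bases overlap another gene, against 20.6% for ITGB6.

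The exon-free part of the ITGB6 promoter (minus strand, chr2:160200314-160200522) is shown because this gene was lower than mVenus in every comparison made with that group. Others shared this pattern, among them ITGA5, ITGAV, ITGB5, ITGAE and LAMB3. The ITGB6 promoter held no letters of the 3 motifs in the 250 bases searched, of which 30% are G or C.
ITGB6: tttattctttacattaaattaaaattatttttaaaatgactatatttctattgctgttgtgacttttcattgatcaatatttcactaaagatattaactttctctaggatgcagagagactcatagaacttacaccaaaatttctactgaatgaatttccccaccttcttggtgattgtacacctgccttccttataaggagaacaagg

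Collagen receptor subunits split. ITGA2, which encodes the main epithelial collagen receptor subunit, stood at 363, 369 and 344 CPM in p16 with Torin2, 139, 142 and 140.0 in p21, 186, 200.3 and 208 in p16 and 221, 211 and 221 in mVenus. The 4 groups did not overlap, with p16 with Torin2 highest and p21 lowest. ITGA1, another collagen receptor subunit, stood at 16.5, 15.7 and 13.8 CPM in p16 with Torin2, 39.2, 39.3 and 38.8 in p21, 21.4, 23.5 and 25.9 in p16 and 36.4, 36.0 and 34.6 in mVenus. ITGA10, known from cartilage, stood at 9.04, 10.1 and 9.89 CPM in p16 with Torin2, 3.74, 4.14 and 4.77 in p21, 10.8, 10.1 and 9.2 in p16 and 6.28, 5.83 and 6.42 in mVenus. In ITGA1 p21 was highest and p16 with Torin2 lowest, the reverse of ITGA2, while in ITGA10 p21 was lowest, as in ITGA2, and the p16 groups were highest and overlapped.

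Subunits known mainly from leukocytes were low except ITGB2 (chr21:44885953-44931989), which stood at 88.8, 88.3 and 84.0 CPM in p16 with Torin2, 221, 213 and 209 in p21, 66.2, 57.3 and 59.7 in p16 and 123, 125 and 113 in mVenus. Its 4 groups did not overlap, with p21 highest and p16 lowest. Its α partners ITGAL, ITGAM and ITGAD had at most 3 counts in a library, and ITGAX reached 1.53 CPM in mVenus and at most 0.685 CPM elsewhere. ITGA4, which binds VCAM-1 and fibronectin, stood at 1.43, 2.0 and 1.51 CPM in p16 with Torin2, 0.660, 0.866 and 1.34 in p21, 0, 0.132 and 0.338 in p16 and 2.46, 2.04 and 2.12 in mVenus. ITGAE, whose product binds E-cadherin, stood at 4.23, 5.04 and 4.52 CPM in p16 with Torin2, 8.43, 6.43 and 6.62 in p21, 5.17, 6.51 and 4.74 in p16 and 9.32, 9.92 and 10.6 in mVenus. The mVenus libraries were highest in both, and the p16 libraries were lowest in ITGA4 with no overlap. Of 8 leukocyte markers, CD3E and TYROBP had 0 counts in all 12 libraries and PTPRC had 1 count in 1 mVenus library and 0 elsewhere. Their summed level, nearly all of it CSF1R and CD14, was 51.2 to 55.6 CPM in p16 with Torin2, 107.9 to 110.3 in p21, 113.8 to 126.8 in p16 and 53.1 to 56.8 in mVenus, and its part in ITGB2 was not tested. The platelet markers summed to at most 2.04 CPM in any library. The 6 endothelial markers summed to 8.01 to 10.9 CPM in p16 with Torin2, 2.72 to 4.03 in p21, 23.3 to 28.0 in p16 and 5.11 to 6.09 in mVenus, with ROBO4 averaging 21.8 ± 2.55 CPM in p16 and 2.33 ± 0.524 CPM in mVenus (SD, n = 3 each). Their part in the results was not tested. ITGA2B, ITGA9, ITGA11 and ITGB7 had at most 7 counts in a library, and ITGA8 had 0 in all 12.

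**Figure D1:**
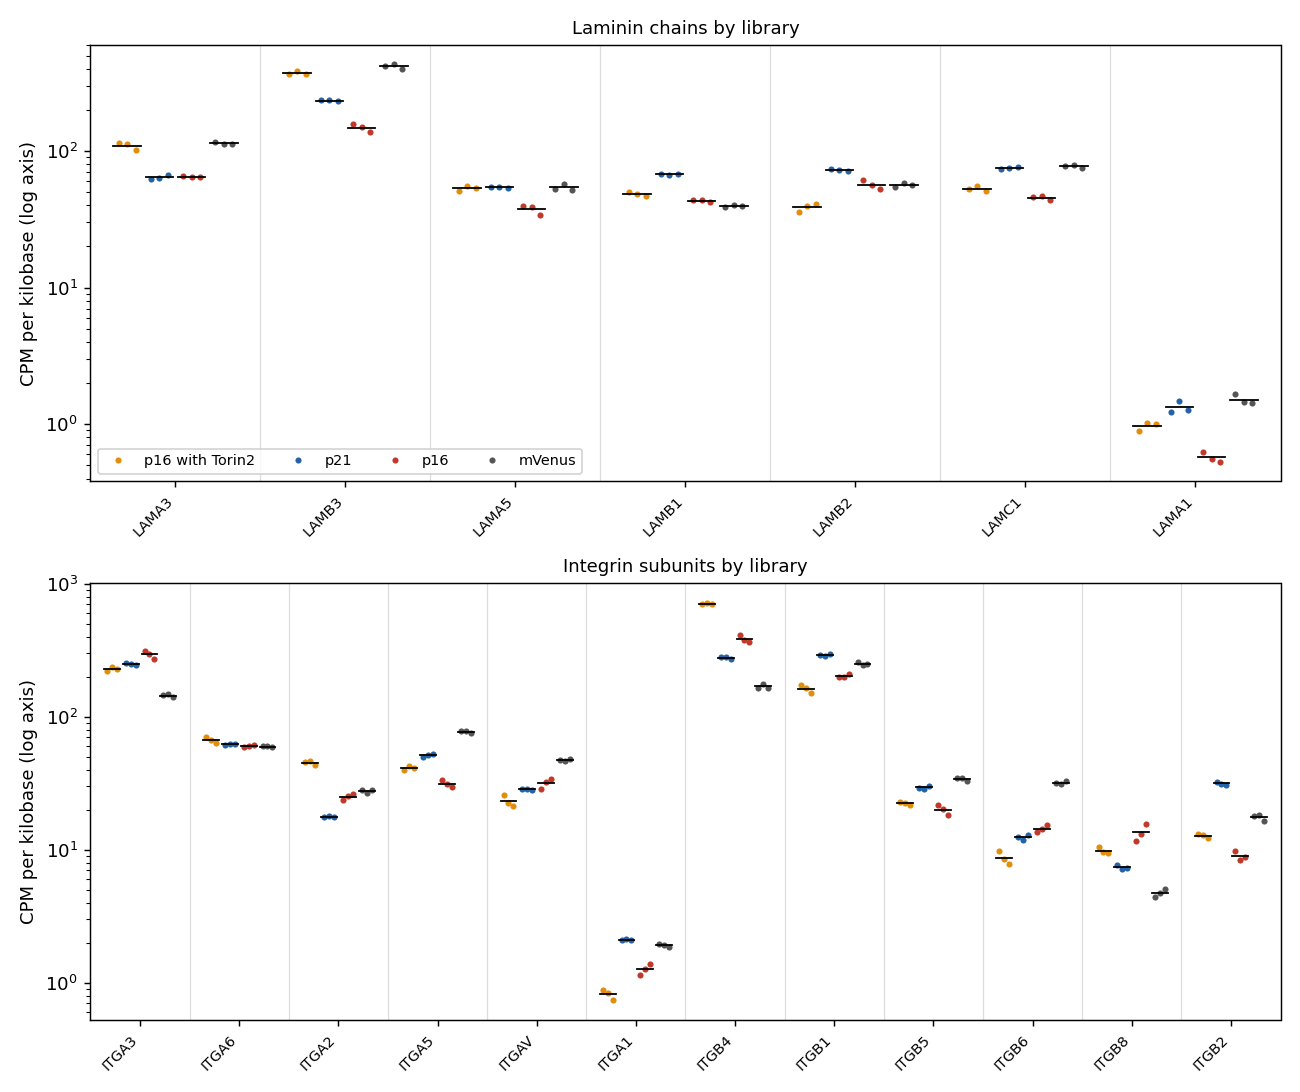
Levels of 7 laminin chains (upper panel) and 12 integrin subunits (lower panel), as CPM per kilobase of exon on a log axis. Points are single libraries and lines are means of 3. LAMB3 stands above the other laminin chains shown in all 4 groups, and ITGB4 in p16 with Torin2 is the highest point of the integrin panel.

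Per kilobase of exon, the composition of the laminin and integrin transcripts shifted between groups. LAMB3 as a share of the β chains was 81.0 ± 0.375% in p16 with Torin2, 62.6 ± 0.215% in p21, 59.7 ± 0.380% in p16 and 81.3 ± 0.606% in mVenus (SD, n = 3 each). No test was made of these shares, and the p16 and p21 libraries lay below all libraries of p16 with Torin2 and mVenus.

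**Figure D2:**
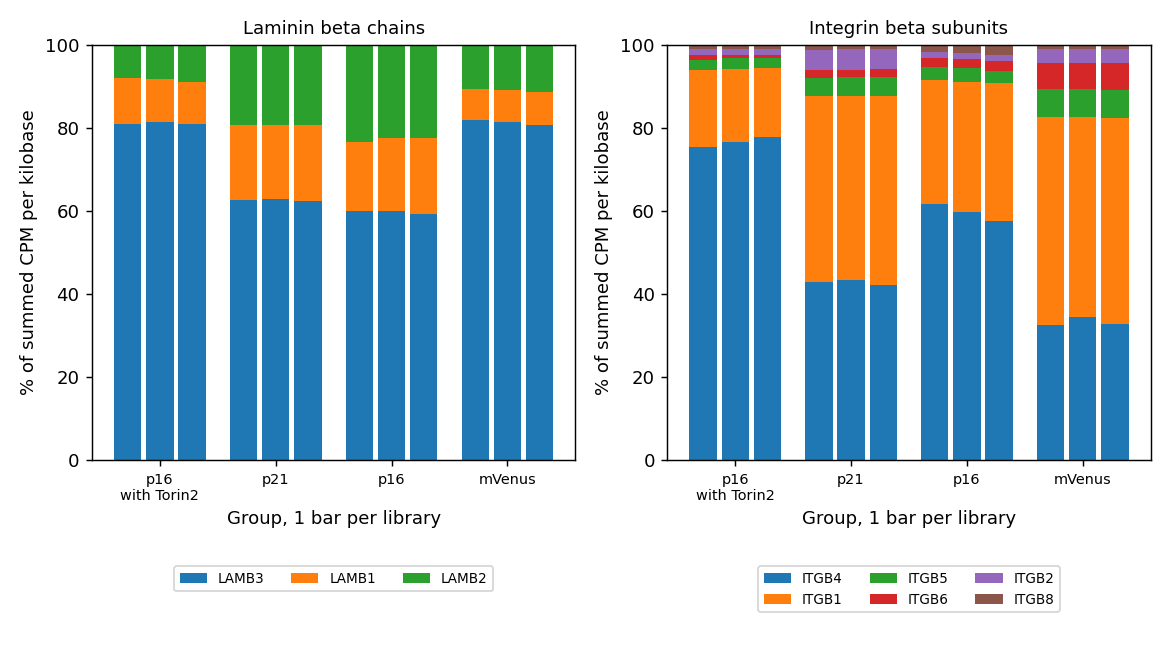
Share of each chain or subunit in the summed CPM per kilobase of its class, 1 stacked bar per library. ITGB4 takes 76.6 ± 1.12% of the β subunits in p16 with Torin2 and 33.3 ± 1.07% in mVenus.

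Among the integrin β subunits, ITGB4 took 76.6 ± 1.12% of the signal in p16 with Torin2, 42.8 ± 0.630% in p21, 59.6 ± 2.07% in p16 and 33.3 ± 1.07% in mVenus. ITGB1 took 17.6 ± 0.942%, 44.8 ± 0.560%, 31.5 ± 1.73% and 49.3 ± 1.06% in the same order. The ratio of ITGB4 to ITGA6, its only partner, was 10.6 ± 0.544 in p16 with Torin2, 4.46 ± 0.0936 in p21, 6.38 ± 0.530 in p16 and 2.83 ± 0.11 in mVenus. Per kilobase of annotated exon, the level of the β subunit thus exceeded that of its partner in every library, by the most with Torin2. The ratio of ITGA3 to ITGA5, a laminin against a fibronectin receptor subunit, was 5.54 ± 0.0154, 4.89 ± 0.214, 9.38 ± 0.215 and 1.86 ± 0.0103 in the same order, and the 4 groups did not overlap. The ratio of LAMB3 to LAMA3 was 3.42 ± 0.208 in p16 with Torin2, 3.66 ± 0.167 in p21, 2.28 ± 0.122 in p16 and 3.66 ± 0.137 in mVenus. It was lower in p16 than in the other 3 groups, with no overlap.

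**Figure D3:**
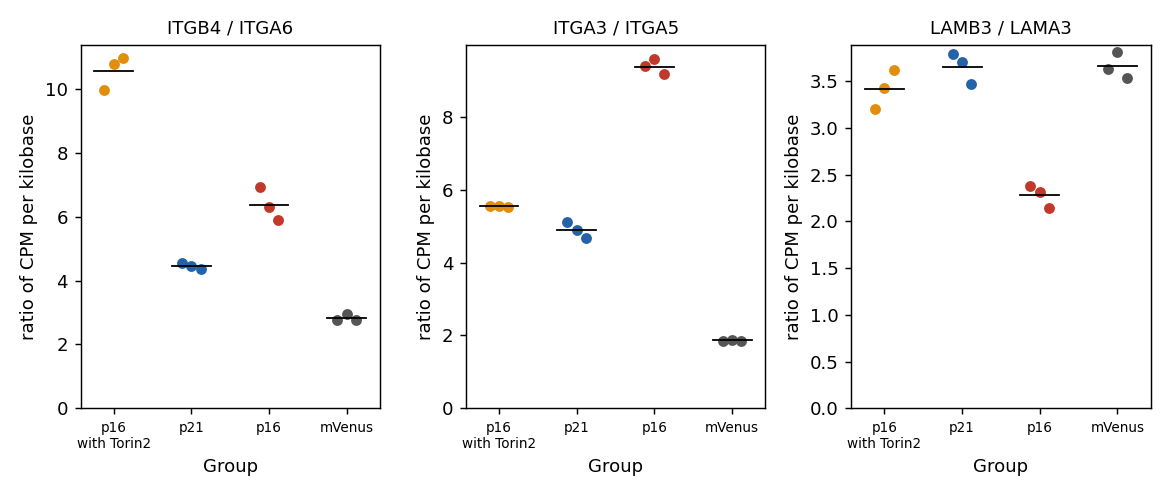
Ratios of CPM per kilobase in each library (points) with group means (lines), on linear axes from 0. ITGB4 over ITGA6 and ITGA3 over ITGA5 are lowest in mVenus, and LAMB3 over LAMA3 is lowest in p16.

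How these genes stood after p16 induction, relative to mVenus alone, is the first question. The laminin genes LAMA3 and LAMB3 fell, the receptors ITGA3 and ITGB4 rose, and fibronectin receptor subunits fell. Of the 28 tested genes 6 rose and 19 fell, where 30.9% of all genes tested rose and 32.8% fell, and the median log2 fold change was -0.68 against 0.00 over all genes. By class, 2 laminin chains rose and 6 fell, 2 α subunits rose and 8 fell, and 2 β subunits rose and 5 fell.

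LAMB3 was 2.81-fold lower in p16 than in mVenus (-1.49 ± 0.04 on the log2 scale, adjusted p = 3.33e-17) and LAMA3 1.75-fold lower (-0.81 ± 0.04, adjusted p = 2.13e-13). LAMC1 (log2 fold change -0.76 ± 0.04), LAMA5 (-0.53 ± 0.05) and LAMA1 (-1.40 ± 0.09) fell too, LAMB1 (0.13 ± 0.03) and LAMA2 (0.85 ± 0.26) rose, and LAMB2 (0.01 ± 0.05, 95% interval -0.09 to 0.12, adjusted p = 0.834) and LAMA4 (-0.56 ± 0.32, 95% interval -1.23 to 0.11, adjusted p = 0.138) did not pass. LAMA4 passed without p16 replicate 1 (log2 fold change -0.89, adjusted p = 0.0436).

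Among receptors, ITGB8 was 2.85-fold higher in p16 (1.51 ± 0.08 on the log2 scale, adjusted p = 5.76e-13), ITGB4 2.27-fold higher (1.18 ± 0.04 on the log2 scale, adjusted p = 5.23e-16) and ITGA3 2.05-fold higher (1.03 ± 0.04 on the log2 scale, adjusted p = 1.97e-14). ITGA10 rose as well (log2 fold change 0.69 ± 0.11). ITGA6, the partner of ITGB4, did not pass at 0.01 (95% interval -0.06 to 0.08, adjusted p = 0.787), so of the hemidesmosome pair only the β subunit was called. ITGA5 was 2.46-fold lower (-1.30 ± 0.04 on the log2 scale, adjusted p = 3.37e-16), and ITGB6 2.21-fold lower (-1.14 ± 0.06 on the log2 scale, adjusted p = 4.43e-13). Also lower were ITGAV (-0.57 ± 0.06), ITGB5 (-0.77 ± 0.05), ITGB2 (-0.97 ± 0.05), ITGA1 (-0.60 ± 0.07), ITGAE (-0.86 ± 0.13), ITGA7 (-1.38 ± 0.21) and ITGB1 (-0.31 ± 0.04) on the log2 scale. At a few counts per library ITGB3 (-2.05 ± 0.36), ITGAX (-2.09 ± 0.46) and ITGA4 (-3.80 ± 0.45) fell too. The fitted change of ITGA4 rests on 7 counts over the 3 p16 libraries and ran to -3.20 without p16 replicate 1 and -4.95 without p16 replicate 3, and that of ITGAX to -3.33 without p16 replicate 1. ITGA2 fell by 0.14 on the log2 scale (adjusted p = 0.0072), a call that ended without p16 replicate 1 (-0.09, adjusted p = 0.0569) and without the low-count filter (-0.09, adjusted p = 0.11).

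**Figure D4:**
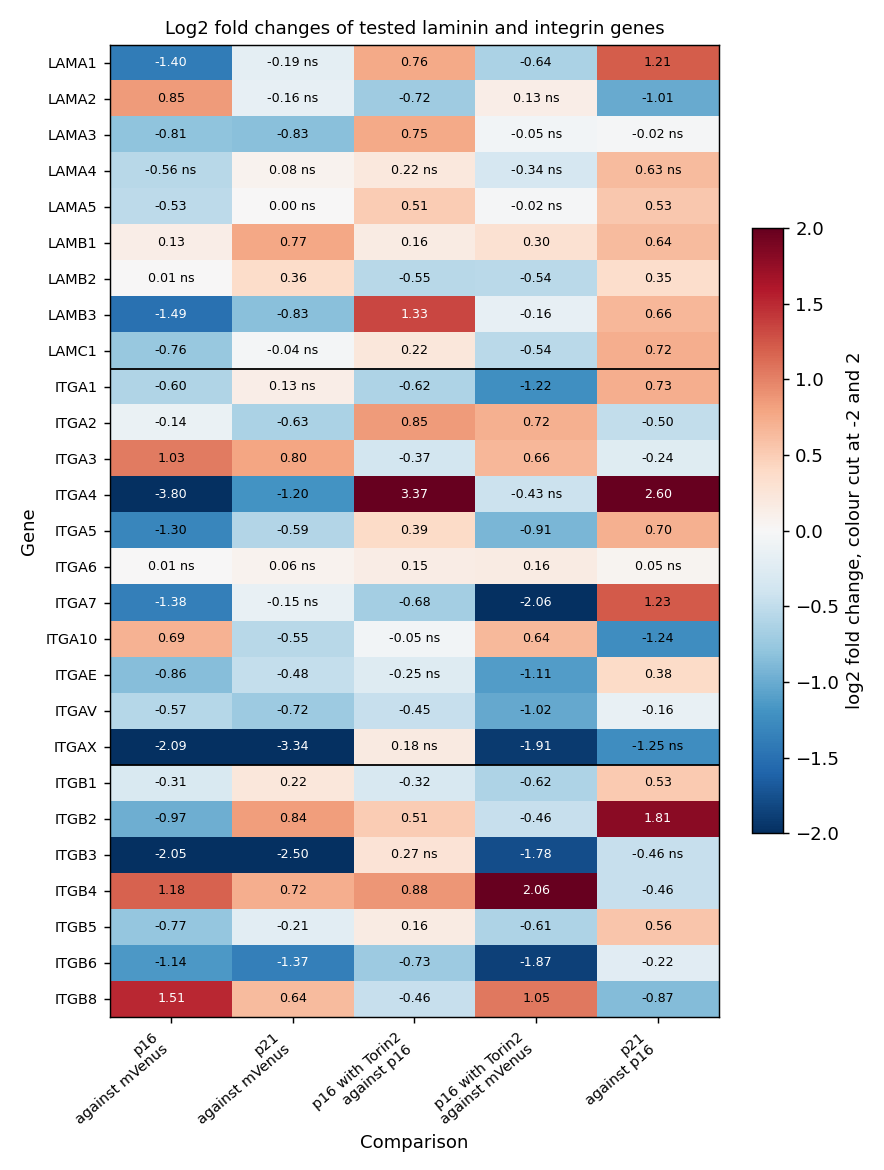
Log2 fold changes of tested laminin and integrin genes (rows) in the 5 comparisons (columns), with the first-named group on top of the ratio. Red is higher and blue lower in the first-named group, the colour is cut at -2 and 2, and ns marks an adjusted p of 0.05 or more. LAMB3 is lower in p16 and p21 than in mVenus, and ITGB4 is higher than in mVenus in all 3 groups.

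Genes that work beside these proteins were read from 7 lists. Their counts stand beside the shares of all genes tested that open each comparison, and some lists lay near those shares. Hemidesmosome partners had 4 of 7 tested genes higher and 2 lower in p16 (median log2 fold change 0.61), led by the keratins KRT14 (4.19 ± 0.07) and KRT5 (1.80 ± 0.03), while the linker PLEC (-0.37 ± 0.04) and the tetraspanin CD151 (-0.36 ± 0.05) fell. Among basement membrane partners of laminin 2 of 15 rose and 10 fell (median -0.78). The collagen IV chains COL4A2 (-5.03 ± 0.08) and COL4A1 (-4.97 ± 0.07) fell, and COL4A6 (0.81 ± 0.05) and the peroxidasin gene PXDN (0.14 ± 0.04) rose. Among other integrin ligands 1 of 18 rose and 15 fell (median -1.19). Fibronectin, FN1, averaged 61.6 ± 5.03 CPM in p16 and 2438 ± 152 CPM in mVenus (-5.31 ± 0.10 on the log2 scale, adjusted p = 1.15e-19), the collagen VI gene COL6A3 fell (-5.21 ± 0.15) and E-cadherin, CDH1, the ligand of αEβ7, rose (1.13 ± 0.04).

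Laminin receptors other than integrins were divided in p16, with 4 of 8 higher and 3 lower (median 0.05). The syndecan SDC1 (1.91 ± 0.04) and dystroglycan, DAG1 (0.33 ± 0.04), rose, and MCAM (-5.70 ± 0.08) fell. Of the adaptors that couple integrins to actin, 6 of 32 rose and 20 fell (median -0.49). FHL3 (0.63 ± 0.06) and tensin 1, TNS1 (0.47 ± 0.07), rose, TGFB1I1 (-3.63 ± 0.12) fell, and KANK4 had 1 count over the p16 libraries and 710 over the mVenus libraries. Of integrin signalling genes 2 of 16 rose and 7 fell (median -0.17). Here caveolin, CAV1 (0.88 ± 0.05), and GIT1 (0.30 ± 0.05) were higher and NEDD9 (-3.16 ± 0.18) and ARHGEF6 (-1.54 ± 0.16) were lower. Of pericellular proteases and their inhibitors 5 of 12 rose and 7 fell (median -0.62). Here the urokinase gene PLAU (1.41 ± 0.07) and its receptor PLAUR (1.03 ± 0.07) were higher and the procollagen protease gene BMP1 (-0.90 ± 0.05) was lower. ACTN4 and ILK, adaptors that most cells use, had at most 4 and 7 counts in a library and are not measured by these counts. Other annotated genes share 14.2% of the exonic bases of ACTN4 and 78.5% of those of ILK, and the cause was not tested.

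**Figure D5:**
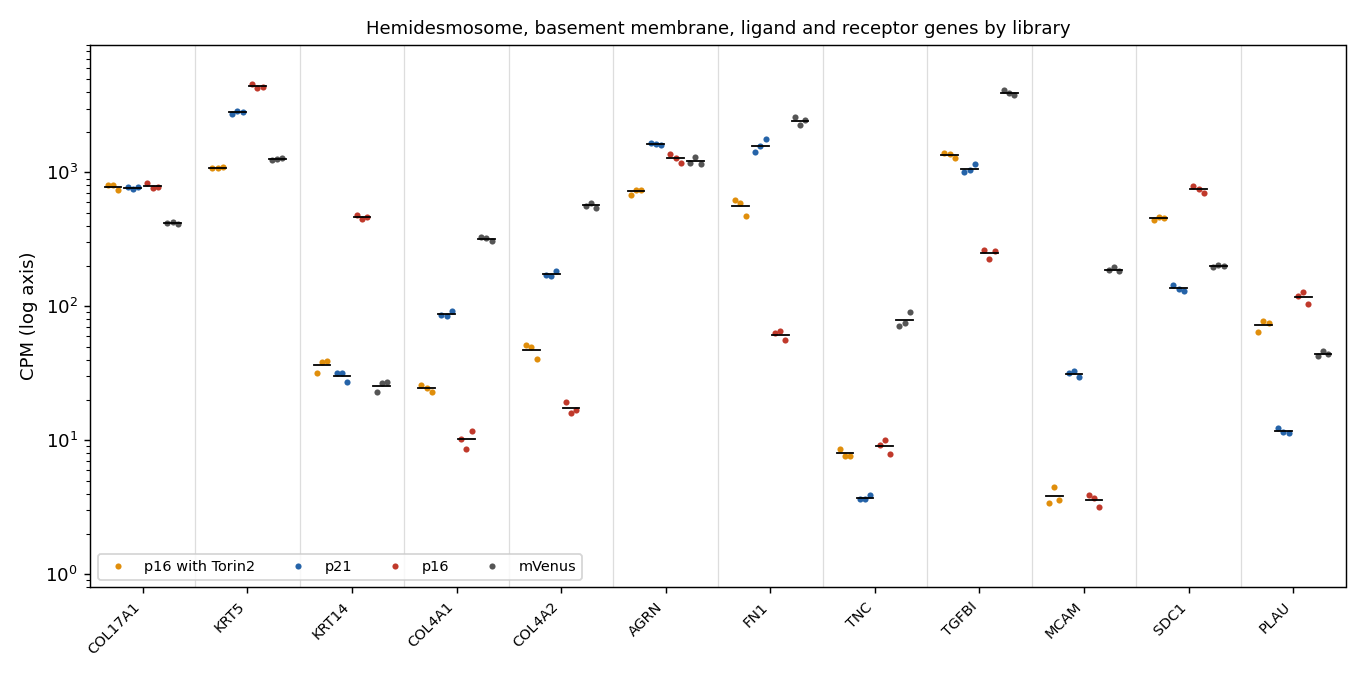
Levels of 12 genes of the hemidesmosome, the basement membrane, other ligands, receptors and proteases, as CPM on a log axis, with points for libraries and lines for means of 3. FN1, COL4A1 and COL4A2 are highest in mVenus and lowest in p16, and COL17A1 is lowest in mVenus.

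The second comparison asks the same of p21. LAMA3 and LAMB3 fell, LAMB1 and LAMB2 rose, and ITGA3, ITGB4, ITGB8, ITGB2 and ITGB1 rose. Of the 28 tested genes 7 rose and 13 fell, where 28.2% of all genes tested rose and 28.3% fell, and the median log2 fold change was -0.18 against 0.00 over all genes. By class, 2 laminin chains rose and 3 fell, 1 α subunit rose and 7 fell, and 4 β subunits rose and 3 fell.

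LAMB3 was 1.78-fold lower in p21 than in mVenus (-0.83 ± 0.04 on the log2 scale, adjusted p = 4.54e-13) and LAMA3 1.78-fold lower (-0.83 ± 0.04 on the log2 scale, adjusted p = 2.01e-13). In the other direction LAMB1 was 1.71-fold higher (0.77 ± 0.03 on the log2 scale, adjusted p = 4.66e-14) and LAMB2 1.29-fold higher (0.36 ± 0.05 on the log2 scale, adjusted p = 2.59e-06), so the β chains changed in opposite directions. The remaining laminin chains did not pass: LAMA5 had a log2 fold change of 0.00 (95% interval -0.10 to 0.10), LAMC1 of -0.04 (95% interval -0.11 to 0.04), LAMA1 of -0.19 (95% interval -0.36 to -0.02, adjusted p = 0.0525), LAMA2 of -0.16 (95% interval -0.77 to 0.45) and LAMA4 of 0.08 (95% interval -0.54 to 0.70). LAMA1 passed in the fit of the 6 libraries compared (adjusted p = 0.037), without p21 replicate 2 (0.0153) and without mVenus replicate 3 (0.0379).

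ITGB2 was 1.79-fold higher in p21 (0.84 ± 0.05 on the log2 scale, adjusted p = 5.69e-12), ITGA3 1.74-fold higher (0.80 ± 0.04 on the log2 scale, adjusted p = 1.88e-12), ITGB4 1.65-fold higher (0.72 ± 0.04 on the log2 scale, adjusted p = 2.33e-12), ITGB8 1.56-fold higher (0.64 ± 0.08 on the log2 scale, adjusted p = 8.24e-07) and ITGB1 1.17-fold higher (0.22 ± 0.04 on the log2 scale, adjusted p = 6.90e-05). ITGB6 was 2.58-fold lower (-1.37 ± 0.06 on the log2 scale, adjusted p = 4.50e-14), and its partner ITGAV (-0.72 ± 0.06) and ITGB5 (-0.21 ± 0.05) fell as well. ITGA2 (-0.63 ± 0.04), ITGA5 (-0.59 ± 0.04), ITGA10 (-0.55 ± 0.12), ITGAE (-0.48 ± 0.13), ITGA4 (-1.20 ± 0.31), ITGB3 (-2.50 ± 0.38) and ITGAX (-3.34 ± 0.56) fell on the log2 scale, the last 3 at a few counts per library. ITGA6 (0.06, 95% interval -0.01 to 0.14), ITGA1 (0.13, 95% interval 0.00 to 0.27) and ITGA7 (-0.15, 95% interval -0.53 to 0.23) did not pass. In the fit of the 6 libraries compared, and without the low-count filter, ITGA1 (adjusted p = 0.0196 and 0.0258) and ITGA6 (0.0352 and 0.0292) passed as higher.

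Hemidesmosome partners had 5 of 7 genes higher and 2 not past the threshold in p21 (median 0.41), with KRT5 (1.15 ± 0.03) and the collagen of hemidesmosomes COL17A1 (0.88 ± 0.04) leading. Basement membrane partners had 5 of 15 higher and 7 lower (median -0.11): perlecan, HSPG2 (0.61 ± 0.05), and the laminin-binding netrin NTN4 (0.61 ± 0.04) rose, and COL4A1 (-1.86 ± 0.05) and COL4A2 (-1.70 ± 0.06) fell. Other integrin ligands had 7 of 18 higher and 10 lower (median -0.34). Here COL6A2 (2.66 ± 0.26) and COL6A1 (0.93 ± 0.06) were higher and COL6A3 (-4.66 ± 0.14) and tenascin C, TNC (-4.41 ± 0.11), were lower, so the chains of collagen VI changed in opposite directions. Other laminin receptors had 2 of 8 higher and 5 lower (median -0.42): the syndecans SDC2 (2.56 ± 0.07) and SDC4 (0.39 ± 0.04) rose, and MCAM (-2.58 ± 0.05) and BCAM (-1.08 ± 0.08), the Lutheran receptor of laminin α5, fell.

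Adaptors had 9 of 32 higher and 19 lower in p21 (median -0.17). Here tensin 4, TNS4 (0.75 ± 0.03), was higher and KANK4 (-3.94 ± 0.23) and TGFB1I1 (-1.99 ± 0.10) were lower. Zyxin, ZYX, an adaptor that most cells use and that was close to absent in these counts for a reason that was not tested, passed as higher (1.88 ± 0.68, adjusted p = 0.0236) through 1 library: it stood at 19.4, 1.48 and 1.40 CPM in p21 and 1.94, 1.97 and 1.90 CPM in mVenus, and without p21 replicate 1 the log2 fold change was -0.42 (adjusted p = 0.368). That call also ended without any 1 of the mVenus libraries (adjusted p from 0.0521 to 0.0628). Integrin signalling genes had 5 of 16 higher and 5 lower (median 0.02), near the 28.2% and 28.3% of all genes tested. Here the kinase FYN (1.40 ± 0.07) and CAV1 (0.47 ± 0.05) were higher and NEDD9 (-0.57 ± 0.13) and its relative BCAR1 (-0.55 ± 0.12) were lower. Proteases and inhibitors had 2 of 12 higher and 8 lower (median -1.0). Here the metalloproteinase inhibitors TIMP3 (0.96 ± 0.03) and TIMP2 (0.47 ± 0.03) were higher and PLAU (-1.92 ± 0.10) was lower. The fibroblast marker sum was 110.9 to 117.2 CPM in p21 against 20.2 to 20.5 CPM in mVenus, with COL1A2 and COL3A1 at 0 in both groups and most of the p21 sum from DCN, and its part in the matrix genes was not tested.

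The third comparison asks what Torin2 did in p16 cells. LAMB3, LAMA3, LAMA5, LAMA1 and LAMC1 rose, as did ITGB4 and ITGA2, while ITGA3, ITGB1 and ITGB6 fell. Of the 28 tested genes 14 rose and 9 fell, where 30.3% of all genes tested rose and 29.0% fell, and the median log2 fold change was 0.17 against 0.02 over all genes. By class, 7 laminin chains rose and 2 fell, 4 α subunits rose and 4 fell, and 3 β subunits rose and 3 fell.

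LAMB3 was 2.52-fold higher in p16 with Torin2 than in p16 (1.33 ± 0.04 on the log2 scale, adjusted p = 3.92e-16) and LAMA3 1.69-fold higher (0.75 ± 0.04 on the log2 scale, adjusted p = 1.05e-12). LAMA1 (0.76 ± 0.10), LAMA5 (0.51 ± 0.05), LAMC1 (0.22 ± 0.04) and LAMB1 (0.16 ± 0.03) also rose on the log2 scale. LAMB2 fell (-0.55 ± 0.05, adjusted p = 9.30e-09), against the direction of the other well-measured chains. LAMA2 fell (-0.72 ± 0.26, adjusted p = 0.0216) at about 1 to 2 CPM, a call that ended without p16 replicate 2 or 3 or Torin2 replicate 1 or 3 (adjusted p from 0.0614 to 0.0971). LAMA4 did not pass (0.22, 95% interval -0.50 to 0.93).

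ITGB4 was 1.84-fold higher with Torin2 (0.88 ± 0.04 on the log2 scale, adjusted p = 9.15e-14) and ITGA2 1.81-fold higher (0.85 ± 0.04 on the log2 scale, adjusted p = 3.99e-13). ITGB2 (0.51 ± 0.05), ITGA5 (0.39 ± 0.04), ITGB5 (0.16 ± 0.05) and ITGA6 (0.15 ± 0.03) rose by less, the call of ITGB5 ending without p16 replicate 3 (0.09, adjusted p = 0.0686). ITGA4, with 7 counts over the p16 libraries and a mean of 1.65 ± 0.310 CPM with Torin2, passed as higher (3.37 ± 0.48), with 2.78 without p16 replicate 1 and 4.52 without p16 replicate 3. ITGB6 (-0.73 ± 0.07), ITGA1 (-0.62 ± 0.08), ITGB8 (-0.46 ± 0.07), ITGAV (-0.45 ± 0.06), ITGA3 (-0.37 ± 0.04) and ITGB1 (-0.32 ± 0.04) fell on the log2 scale. ITGA7 fell at the threshold (-0.68 ± 0.27, adjusted p = 0.0498), a call that ended without any 1 of the p16 libraries and without Torin2 replicate 1 or 2 (adjusted p from 0.0563 to 0.162). ITGAE (-0.25, 95% interval -0.56 to 0.06), ITGA10 (-0.05, 95% interval -0.26 to 0.17), ITGB3 (0.27, 95% interval -0.69 to 1.23) and ITGAX (0.18, 95% interval -1.09 to 1.45) did not pass.

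With Torin2, hemidesmosome partners had 3 of 7 genes higher and 3 lower than in p16 (median -0.02): PLEC (0.43 ± 0.04) and DST (0.19 ± 0.04), which link integrin β4 and collagen to keratins, rose, and the keratins KRT14 (-3.68 ± 0.07) and KRT5 (-2.02 ± 0.03) fell. Basement membrane partners had 4 of 15 higher and 5 lower (median -0.04), near the 30.3% and 29.0% of all genes tested. Here COL4A2 (1.43 ± 0.09) and COL4A1 (1.26 ± 0.09) were higher and COL4A6 (-1.14 ± 0.05) and agrin, AGRN (-0.82 ± 0.05), were lower. Other ligands had 7 of 18 higher and 6 lower (median 0.07). Here FN1 (3.19 ± 0.10) and TGFBI (2.43 ± 0.06) were higher and MFGE8 (-2.0 ± 0.05) and COL6A1 (-0.95 ± 0.09) were lower. Other laminin receptors had 1 of 8 higher, RPSA (0.65 ± 0.04), and 5 lower, led by BCAM (-1.35 ± 0.09) and DAG1 (-1.13 ± 0.04), with a median of -0.53. RPSA also encodes a protein of the small ribosomal subunit.

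Adaptors had 16 of 32 higher and 10 lower with Torin2 (median 0.12). Here TGFB1I1 (3.15 ± 0.13) and FHL2 (0.78 ± 0.06) were higher and TNS1 (-2.71 ± 0.09) and TNS2 (-0.73 ± 0.07) were lower. Signalling genes had 3 of 16 higher and 5 lower (median -0.02). Here DOCK1 (0.65 ± 0.04) and SRC (0.42 ± 0.05) were higher and FYN (-0.37 ± 0.09) and CAV1 (-0.37 ± 0.05) were lower. Proteases and inhibitors had 2 of 12 higher, among them TIMP3 (0.38 ± 0.03), and 7 lower, led by TIMP1 (-1.03 ± 0.03) and PLAU (-0.69 ± 0.07), with a median of -0.48. The basal epithelial markers summed to 5270 to 5426 CPM with Torin2 and 10546 to 11183 CPM in p16, and their part in these changes was not tested. Of these 5 markers the 3 keratins KRT5, KRT14 and KRT17 fell, while TP63 (1.07 ± 0.06) and EGFR (1.07 ± 0.03) rose.

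Set against mVenus, p16 cells with Torin2 had LAMA3 and LAMB3 close to the control level and the highest ITGB4 of the 4 groups. Of the 28 tested genes 7 rose and 16 fell, where 31.2% of all genes tested rose and 36.1% fell, and the median log2 fold change was -0.50 against -0.03 over all genes. By class, 1 laminin chain rose and 5 fell, 4 α subunits rose and 6 fell, and 2 β subunits rose and 5 fell.

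LAMA3 did not differ past the threshold (-0.05, 95% interval -0.13 to 0.03, adjusted p = 0.221), and LAMB3 fell by 0.16 on the log2 scale (adjusted p = 0.00195). LAMA5 was at -0.02 (95% interval -0.12 to 0.08), and LAMA2 (0.13, 95% interval -0.45 to 0.71) and LAMA4 (-0.34, 95% interval -0.99 to 0.31) did not pass. LAMB1 rose (0.30 ± 0.03), and LAMC1 (-0.54 ± 0.04), LAMB2 (-0.54 ± 0.05) and LAMA1 (-0.64 ± 0.09) fell. ITGB4 was 4.18-fold higher with Torin2 than in mVenus (2.06 ± 0.04 on the log2 scale, adjusted p = 2.07e-19), and ITGB8 (1.05 ± 0.08), ITGA2 (0.72 ± 0.04), ITGA3 (0.66 ± 0.04), ITGA10 (0.64 ± 0.11) and ITGA6 (0.16 ± 0.03) rose by less.

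ITGB6 was 3.66-fold lower with Torin2 (-1.87 ± 0.06 on the log2 scale, adjusted p = 4.10e-16) and ITGA1 2.33-fold lower (-1.22 ± 0.07 on the log2 scale, adjusted p = 7.81e-12). ITGAV (-1.02 ± 0.06), ITGA5 (-0.91 ± 0.04), ITGB1 (-0.62 ± 0.04), ITGB5 (-0.61 ± 0.05), ITGB2 (-0.46 ± 0.05), ITGAE (-1.11 ± 0.13), ITGA7 (-2.06 ± 0.23), ITGAX (-1.91 ± 0.45) and ITGB3 (-1.78 ± 0.34) also fell, and ITGA4 did not pass (-0.43, 95% interval -1.02 to 0.17). Basement membrane partners had 13 of 15 lower and 2 not past the threshold (median -0.74), led by COL4A1 (-3.71 ± 0.06) and COL4A2 (-3.59 ± 0.07), so the laminin β3 and α3 transcripts stood near the control level while collagen IV did not. Hemidesmosome partners had 4 of 7 higher and 2 lower (median 0.16). Here COL17A1 (0.90 ± 0.04) and DST (0.80 ± 0.04) were higher and CD151 (-0.86 ± 0.06) and KRT5 (-0.22 ± 0.03) were lower. Other ligands had 1 of 18 higher, CDH1 (0.28 ± 0.04), and 14 lower (median -1.96), led by COL6A3 (-3.76 ± 0.13) and TNC (-3.32 ± 0.10).

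Among the remaining lists, other laminin receptors had 2 of 8 higher, SDC1 (1.17 ± 0.04) and RPSA (0.86 ± 0.04), and 6 lower with Torin2 than in mVenus (median -1.12), led by MCAM (-5.62 ± 0.08) and SDC2 (-2.14 ± 0.13). Adaptors had 7 of 32 higher and 20 lower (median -0.48). Here kindlin 1, FERMT1 (0.86 ± 0.05), and TNS4 (0.35 ± 0.03) were higher and KANK4 (-2.53 ± 0.19) and TNS1 (-2.25 ± 0.09) were lower. Signalling genes had 3 of 16 higher and 11 lower (median -0.24). Here GIT1 (0.67 ± 0.05) and CAV1 (0.52 ± 0.05) were higher and NEDD9 (-2.68 ± 0.17) and ARHGEF6 (-1.51 ± 0.16) were lower. Proteases and inhibitors had 3 of 12 higher and 7 lower (median -0.69). Here PLAU (0.72 ± 0.08) and TIMP3 (0.66 ± 0.03) were higher and BMP1 (-1.45 ± 0.05) was lower.

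The last comparison sets p21 directly against p16. LAMA3 did not differ past the threshold, LAMB3 was higher in p21, ITGB2, LAMA1, LAMC1, ITGA5 and ITGB1 were higher, and ITGB4, ITGB8 and ITGA10 were lower. Of the 28 tested genes 14 rose and 8 fell in p21 relative to p16, where 27.2% of all genes tested rose and 27.2% fell, and the median log2 fold change was 0.36 against -0.01 over all genes. By class, 6 laminin chains rose and 1 fell, 5 α subunits rose and 4 fell, and 3 β subunits rose and 3 fell.

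LAMA3 had a log2 fold change of -0.02 (95% interval -0.10 to 0.06, adjusted p = 0.679). LAMB3 was 1.58-fold higher in p21 than in p16 (0.66 ± 0.04 on the log2 scale, adjusted p = 3.00e-11), LAMC1 1.65-fold higher (0.72 ± 0.04 on the log2 scale, adjusted p = 8.86e-13) and LAMB1 1.56-fold higher (0.64 ± 0.03 on the log2 scale, adjusted p = 1.36e-12). LAMA5 (0.53 ± 0.05), LAMB2 (0.35 ± 0.05) and LAMA1 (1.21 ± 0.10) rose and LAMA2 (-1.01 ± 0.27) fell, while LAMA4 did not pass (0.63, 95% interval -0.04 to 1.31; without p16 replicate 1, 0.97 and adjusted p = 0.0347). ITGB2 was 3.51-fold higher in p21 (1.81 ± 0.05 on the log2 scale, adjusted p = 1.00e-16), and ITGA1 (0.73 ± 0.07), ITGA5 (0.70 ± 0.04), ITGB5 (0.56 ± 0.05), ITGB1 (0.53 ± 0.04), ITGA7 (1.23 ± 0.21) and ITGA4 (2.60 ± 0.53; 2.01 without p16 replicate 1 and 3.76 without p16 replicate 3) rose.

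ITGA10 (-1.24 ± 0.12), ITGB8 (-0.87 ± 0.07), ITGA2 (-0.50 ± 0.04), ITGB4 (-0.46 ± 0.04), ITGA3 (-0.24 ± 0.04) and ITGB6 (-0.22 ± 0.06) were lower in p21 than in p16. ITGA6 (0.05, 95% interval -0.02 to 0.12), ITGB3 (-0.46, 95% interval -1.53 to 0.62) and ITGAX (-1.25, 95% interval -2.83 to 0.33) did not pass, though ITGAX did without p16 replicate 3 (-1.80, adjusted p = 0.0154). ITGAE rose (0.38 ± 0.14, adjusted p = 0.0266) with overlapping libraries and ITGAV fell (-0.16 ± 0.06, adjusted p = 0.0315). Of these calls, that of ITGAE ended without p16 replicate 1 or 3 or p21 replicate 1 (adjusted p from 0.0815 to 0.155), and that of ITGAV without p16 replicate 2 or 3 or any 1 of the p21 libraries (from 0.0674 to 0.159).

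Of the partner lists, basement membrane partners had 9 of 15 higher and 4 lower in p21 than in p16 (median 0.68). Here COL4A2 (3.32 ± 0.08) and COL4A1 (3.10 ± 0.07) were higher and COL7A1, the anchoring fibril collagen (-0.81 ± 0.16), and COL4A6 (-0.63 ± 0.05) were lower. Other ligands had 12 of 18 higher and 3 lower (median 1.12). Here FN1 (4.69 ± 0.10) and fibrillin 1, FBN1 (4.24 ± 0.11), were higher and TNC (-1.28 ± 0.16) and CDH1 (-1.17 ± 0.04) were lower. Adaptors had 19 of 32 higher and 6 lower (median 0.18). Here talin 2, TLN2 (1.87 ± 0.07), and TNS3 (1.67 ± 0.04) were higher and FHL3 (-0.74 ± 0.06) and VASP (-0.51 ± 0.04) were lower. Hemidesmosome partners had 2 of 7 higher, PLEC (0.78 ± 0.04) and CD151 (0.42 ± 0.05), and 2 lower, KRT14 (-3.94 ± 0.07) and KRT5 (-0.64 ± 0.03), with a median of 0.01.

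Other laminin receptors had 4 of 8 higher and 4 lower in p21 than in p16 (median -0.04). Here SDC2 (3.79 ± 0.09) and MCAM (3.12 ± 0.10) were higher and SDC1 (-2.47 ± 0.05) and BCAM (-0.98 ± 0.08) were lower. Signalling genes had 5 of 16 higher and 2 lower (median 0.06). Here NEDD9 (2.59 ± 0.19) and ARHGEF6 (1.90 ± 0.16) were higher and CAV1 (-0.41 ± 0.05) and SRC (-0.21 ± 0.05) were lower. Proteases and inhibitors had 5 of 12 higher and 7 lower (median -0.83). Here TIMP2 (0.81 ± 0.03) was higher and PLAU (-3.33 ± 0.09) and PLAUR (-1.12 ± 0.07) were lower.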

How the data were processed

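Messenger RNA of 12 cultures was sequenced from stranded libraries, per the labels. For each library the authors deposited a file of counts by gene name, which featureCounts 1.6.3 had made over the exons of GENCODE 29 (GRCh38), per the file headers, with no option for strand, multimapping reads or pairs. The submitters' processing notes also list HISAT2, Subread, FastQC 0.11.3, DESeq2 and the build GRCh38.p7. The exonic length per gene in the deposited files was used for CPM per kilobase.

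The authors also deposited 3 tables of comparisons with a log2 fold change, a standard error, a p-value and its adjusted value, a mean signal and a test statistic, which is a score. They served only as a check. In the authors' deposited tables all 28 tested genes had the same sign as here in each of 3 comparisons, and 28, 28 and 26 lay on the same side of 0.05 for p16, p21 and Torin2.

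Genes were filtered with filterByExpr and scaled by TMM, and all 12 libraries entered a single fit in edgeR 4.0.16 (R 4.3.3) with a coefficient per group and 8 residual degrees of freedom. Tests were two-sided and intervals are 95%. Biological variation between replicates, as a common coefficient over all genes, came to 3.94%. The lowest correlation between replicates of log2 CPM was 0.9918, and sampling noise alone did not account for the difference of any pair, with a chi-square over its degrees of freedom of 1.60 or more. Libraries of 13168749 counts or more put a floor of 3 counts over a group at 0.0586 to 0.0659 CPM, which covers counting error only.

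The genes and lists were chosen with earlier results of these data known. Counts and medians cover every tested gene of a class or list, and the values of some of these genes are not reported here. From each list and comparison up to 2 risen and 2 fallen genes were named, those with the largest change at 5 CPM or more in the higher group. Alternatives were other scalings, no low-count filter, DESeq2 1.42.0, only the libraries compared, a replicate block and each library left out. Figures were drawn with Python 3.11.15 and matplotlib 3.10.9. The code was tested on simulated data.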

Additional observations from a re-analysis of the deposited data

How the results depend on the processing

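Under 18 alternative settings the 240 recomputed counts of risen and fallen genes stayed within 1.5 times the reported ones. None of the laminin and integrin genes reported as risen or fallen changed direction, whereas the adaptor gene ZYX in p21 against mVenus had -0.42 in place of 1.88 on the log2 scale without p21 replicate 1. Of 1676 recomputed values of laminin and integrin genes, 1640 kept their side of the threshold, 26 lost it and 10 gained it, in 12 of 140 tests, all named beside their results. The replicate numbers do not pair the samples. Once the group mean of each gene's log2 CPM was subtracted, what remained in same-numbered libraries correlated with r of -0.0822 to 0.0754. With a replicate block 139 of 140 calls held, the exception being ITGA7 with Torin2 against p16 (log2 fold change -0.68, adjusted p = 0.0502), and in p21 against p16 alone each library correlated best with its own number. ITGA7 in that comparison also missed the threshold under upper quartile scaling (adjusted p = 0.0615), without the low-count filter (0.102) and in DESeq2 (0.117), as did LAMA2 there (0.0751) and ITGAE in p21 against p16 (0.0636) in DESeq2. No scaling moved the median of all genes by as much as 0.1 on the log2 scale. These scalings all hold the bulk of genes near no change, so this median cannot show a shift in total RNA per cell. Depth limits ITGA4, ITGA7, ITGAX, ITGB3, LAMA2 and LAMA4, at about 3 CPM or less, and the 10 untested genes.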
